A study of Mus musculus with 6 samples.

Results

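AP-1 is a family of dimeric transcription factors built from Fos proteins (Fos, Fosb, Fosl1, Fosl2), Jun proteins (Jun, Junb, Jund) and relatives such as Atf3. The rows analysed here were all regions of the accessibility table whose assigned gene is one of these 8 genes, at any distance from the transcription start site (TSS). They were 17 of 63430 regions, and all 17 passed the filter on low signal that left 61327 regions for testing. The table assigns a gene to only 21566 regions, at most 5988 bp from a TSS. Regions farther from the starts of these genes are therefore not among the 17. The assay was ATAC-seq, where Tn5 transposase tags open stretches of chromatin with sequencing adapters. The cells were NIH/3T3, an established fibroblast line derived from mouse embryos, and those of both groups carried a Cas13d knock-in (a CRISPR nuclease whose guide directs it to RNA). The GFP guide group (GFP-KD, 3 libraries) was transfected with a guide RNA against GFP, and the Actg1 guide group (sg3-KD, 3 libraries) with one against Actg1 mRNA, which encodes cytoplasmic gamma-actin. The study asked how degradation of an mRNA bears on transcriptional adaptation, the altered transcription of other genes that can accompany it. Each library was made from 25000 cells, and no age, time after transfection or clone is given in the sources used here.

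AP-1 dimers bind short palindromic sites. The TPA response element (TRE) is preferred by Fos-Jun and Jun-Jun dimers, and the cAMP response element (CRE) is favoured when an ATF or CREB protein takes part. Jun and Fos proteins have a leucine zipper that pairs the dimer and a basic region that touches DNA, and Fos proteins do not form stable dimers with each other. Fos, Fosb, Jun and Junb are immediate early genes, switched on within minutes when serum or growth factors reach resting fibroblasts, and they are then shut off again. Fos transcription is driven in part by the serum response factor Srf with ternary complex factors such as Elk1, and Srf in turn responds to the actin cytoskeleton through the cofactor Mrtfa. The Jun gene is known to be activated by its own product through a site in its promoter.

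The promoter sequences of Jun, Fos and Junb are shown because the TSS-nearest regions of all 3 genes had lower values in every Actg1 guide library. RefSeq windows (GRCm38.p6, the assembly also called mm10) were found for 7 of the 8 genes. The 250 bases before the RefSeq TSS are printed 5′ to 3′ on the gene's strand, with matches to any of 8 searched motifs in capitals.
Jun promoter, chr4:95052223-95052472, minus strand: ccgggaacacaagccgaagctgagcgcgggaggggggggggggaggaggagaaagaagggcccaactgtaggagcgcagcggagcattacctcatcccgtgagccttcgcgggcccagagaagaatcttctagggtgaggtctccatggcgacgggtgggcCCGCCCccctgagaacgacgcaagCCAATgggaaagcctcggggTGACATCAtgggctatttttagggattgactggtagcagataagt
Fos promoter, chr12:85473640-85473889, plus strand: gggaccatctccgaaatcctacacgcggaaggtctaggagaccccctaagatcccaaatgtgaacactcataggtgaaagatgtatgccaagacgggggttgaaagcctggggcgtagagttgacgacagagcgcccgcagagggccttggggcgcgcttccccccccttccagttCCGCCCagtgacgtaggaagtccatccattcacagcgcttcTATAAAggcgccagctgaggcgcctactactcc
Junb promoter, chr8:84978749-84978998, minus strand: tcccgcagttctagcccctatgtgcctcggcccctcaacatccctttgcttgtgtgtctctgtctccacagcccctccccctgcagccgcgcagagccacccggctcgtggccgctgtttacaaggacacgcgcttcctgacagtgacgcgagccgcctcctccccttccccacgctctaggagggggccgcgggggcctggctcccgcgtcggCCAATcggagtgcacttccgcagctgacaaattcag

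The capitals in Jun mark, from left to right, a GC box read on the other strand (GGGCGG, a site of Sp1), a CCAAT box (CCAAT) and the AP-1 variant TGACATCA at positions -45 to -38, counted from -1 at the last base before the TSS. In Fos they mark a GC box and a TATA box (TATAAA, positions -33 to -28), and in Junb a CCAAT box. The variant TGACATCA was present in 1 of the 7 AP-1 gene windows and in 2.93% of 32817 RefSeq promoter windows of that length, or 1.38% of the 11690 windows that overlap an accessible region. The GC box was in 5 of the 7 AP-1 gene windows (Jun, Fos, Fosb, Fosl2 and Atf3). It was in 32.7% of all windows and 61.6% of those in an accessible region. The CCAAT box was in 2 of 7, against 33.8% and 35.7%, and the TATA box in 1 of 7, against 12.4% and 5.53%. The TRE (TGACTCA, 4.46% and 4.05%) and the CRE (TGACGTCA, 1.55% and 2.84%) had 0 matches in the 7 windows. So had the ETS core (CCGGAAG, 6.90% and 14.8%) and the CArG box of Srf (1.47% and 1.15%). The windows of Fosl2, Jund and Atf3 shared 0 bases with a region of their gene, so the second share does not apply to them. All motifs were searched on both strands, and a match is a description of the letters only. Bases farther than 250 before the TSS, or after it, were not searched. Matches also had to be exact, so near matches such as tgacgtag in the Fos window and ttacctca in the Jun window were not marked. A count of 0 therefore does not mean that a gene lacks the site. The Jun and Fos windows lay wholly inside the accessible regions described below, as did that of Fosb, and 203 of the 250 bases of the Junb window did.

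The table and RefSeq place the start of some of these genes differently. The starts of Fos and Jun were identical, those of Junb, Fosb and Fosl1 differed by 30, 67 and 151 bp, that of Fosl2 by 671 bp and that of Jund by 1210 bp. For Fosl2 and Jund, the RefSeq windows shared 0 bases with any region of the gene, while a region covered the start used by the table. For Atf3 the starts lay 34706 bp apart. Both Atf3 regions belong to the distant start, and the only region within 1 kb of the RefSeq start (chromosome 1, 191182431 to 191182793, assigned to no gene) had weak signals of 19 to 31 with the GFP guide and 14 to 25 with the Actg1 guide. Distances below are to the start used by the table.

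The values are read counts per region that the authors had normalized and rounded, called signal here. Estimated reads in regions were 5676057 to 9526703 per library, and the AP-1 gene regions held 72 to 1541 estimated reads each. Between GFP guide replicates 1 and 2 the difference was within sampling noise (chi-square per region 1.01, p = 0.1), unlike the other pairs of a group (1.03 to 1.12), and were counted as 1 sample. Each SD of the GFP guide is therefore between 2 values and leaves out the spread between those 2 libraries. The labels call the libraries biological replicates without naming separate cultures, so p-values here reflect only how much these samples varied, which may be technical. Of 12 fibroblast marker genes, 9 had a region within 1 kb of their TSS (Thy1, Pdgfra and Fap had none). Of the 19 markers of epithelial, endothelial, blood, neural and pluripotent cells only Krt14 had one, with a mean signal of 28.3. The 9 fibroblast markers had mean signals of 28.2 to 937.5 there (median 368), so the lowest was as weak as Krt14.

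The AP-1 gene regions had fold changes between the guides of -0.50 to 0.27 on the log2 scale. Regions were called by limma, a linear model fitted to log2(signal + 1) across all regions, at a Benjamini-Hochberg adjusted p under 0.05. Of the 17 regions, 2 were higher with the Actg1 guide (Fosl1 and Junb) and 3 lower (Jun, Fos and Fosl2), or 29.4%. Over all tested regions the share called was 41.3%, made up of 20.6% higher and 20.7% lower, and over regions assigned to a gene it was 36.3%. Within 1 kb of a TSS 3 of 7 AP-1 gene regions were called, against 32.7% of all such regions, and farther away 2 of 10, against 40.7%. The median absolute log2 fold change within 1 kb was 0.13 for the AP-1 genes and 0.15 for all such regions. The median absolute log2 fold change of the 17 regions was 0.08, against 0.20 over the 21180 tested regions assigned to a gene. These comparisons were not matched on signal. The TSS-nearest regions of the AP-1 genes had mean signals of 238 to 970.0 per kb. The median was 288 per kb for regions within 1 kb of a TSS and 155 for all regions. The groups did not overlap in 7 of the 17 regions, against 50.8% of all tested regions. Without a mean-variance trend in limma, or without GFP guide replicate 3, 0 regions were higher and 1 lower, and that was in each case the upstream Fosl2 region. Without Actg1 guide replicate 1 or 2, 1 was higher and 2 lower. Leaving out GFP guide replicate 3 leaves 1 GFP guide sample, and calls then fell over the whole table too.

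**Figure D1:**
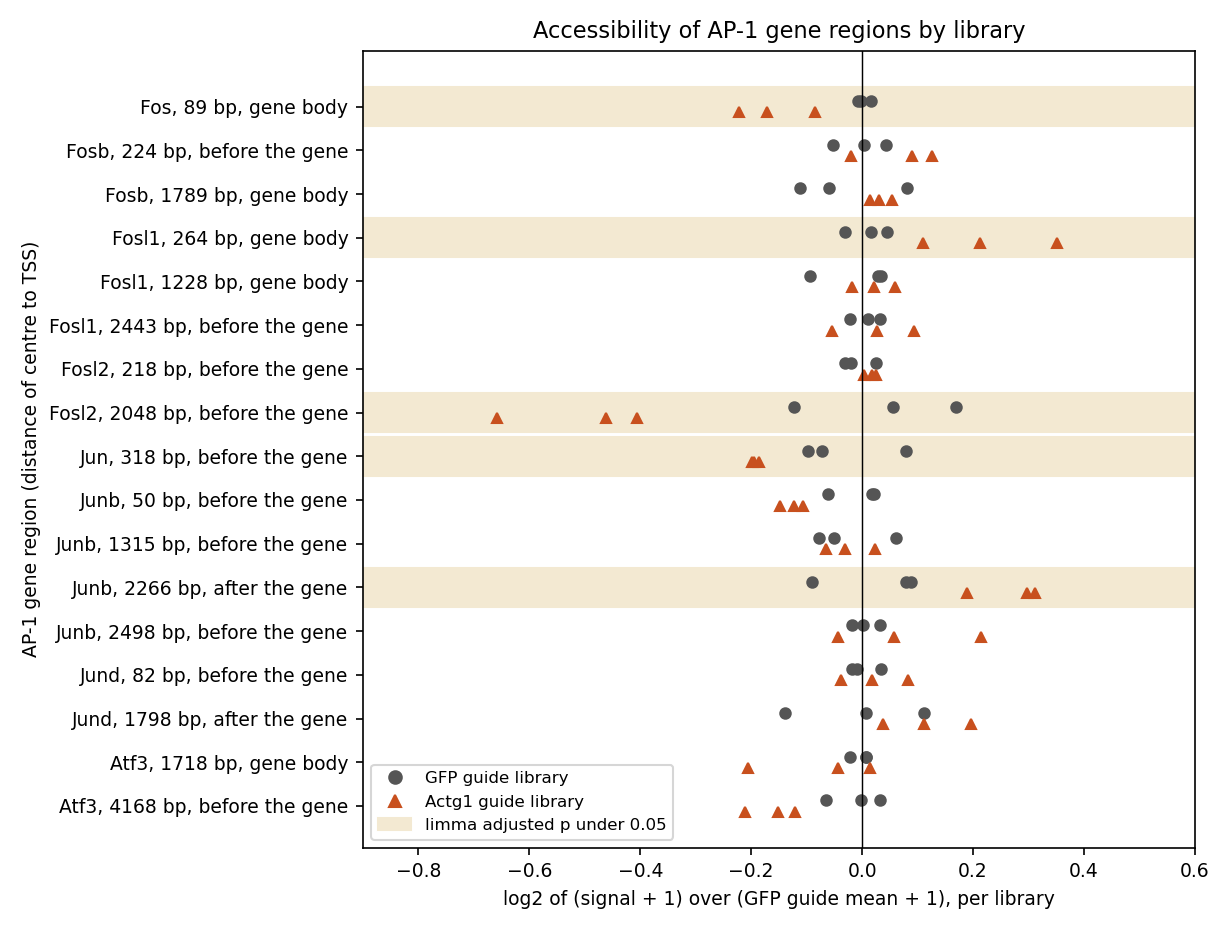
Signal of the 17 AP-1 gene regions in each library, on the x axis as the log2 of (signal + 1) over (GFP guide mean + 1), with 1 row per region. Grey circles are the 3 GFP guide libraries, orange triangles the 3 Actg1 guide libraries, and shaded rows passed limma; the Fosl2 region at 2048 bp has the widest separation, and most other rows lie within about 0.2 of 0.

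Fosl2, also called Fra-2, is a Fos family member that is present in growing fibroblasts and lacks the transactivation domain of Fos. Its region 2048 bp before the TSS (chromosome 5, 32133621 to 32133885) had signals of 145, 157 and 128 in GFP guide replicates 1 to 3 and 88, 105 and 101 in Actg1 guide replicates 1 to 3. All 3 Actg1 guide libraries lay below all 3 GFP guide libraries. The means were 139.5 ± 16.3 (SD, n = 2) and 98.0 ± 8.89 (SD, n = 3), a fall to 0.703 of the control (log2 fold change -0.50, SE 0.125, limma adjusted p = 0.00113). This was the largest change among the 17 regions and the only one called under each of the 14 alternatives, where its log2 fold change ran from -0.62 to -0.43.

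The Fosl2 promoter region itself (218 bp before the TSS, chromosome 5, 32135025 to 32136141) had 878, 885 and 913 with the GFP guide and 899, 913 and 908 with the Actg1 guide. The groups overlapped, and the log2 fold change was 0.02 (SE 0.0474, limma adjusted p = 0.826). The difference between the changes of the upstream region and the promoter was tested directly, as a log2 ratio of the 2 regions within each sample, over all 5044 such pairs of the table, of which 32.1% were called. The upstream Fosl2 region changed by -0.52 (SE 0.115) relative to its promoter (limma adjusted p = 0.000788). Without a mean-variance trend that call ended (adjusted p = 0.0646).

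Jun is the founding Jun protein, the target of the Jun N-terminal kinases, and its promoter holds the TGACATCA variant shown above. Its single region (318 bp before the TSS, chromosome 4, 95051598 to 95053481) was the longest of the 17, with 1884 bp. With the GFP guide it had 1258, 1237 and 1398, and with the Actg1 guide 1156, 1153 and 1163. The Actg1 guide libraries lay close together and below each GFP guide library, of which replicate 3 stood highest. The means were 1323 ± 106 (SD, n = 2) and 1157 ± 5.13 (SD, n = 3), or 0.875 of the control (log2 fold change -0.19, SE 0.0443, limma adjusted p = 0.000545). Without GFP guide replicate 3 the log2 fold change shrank to -0.11 and the call ended (adjusted p = 0.138), as it did without a mean-variance trend (0.210).

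Fos, the partner of Jun in the classical AP-1 dimer, also had 1 region, centred 89 bp into the gene (chromosome 12, 85473425 to 85474532). The GFP guide libraries had 587, 594 and 585 and the Actg1 guide libraries 504, 522 and 554. The groups did not overlap, and the Actg1 guide libraries were spread more widely than the controls. The means were 588 ± 3.89 (SD, n = 2) and 527 ± 25.3 (SD, n = 3), or 0.896 of the control (log2 fold change -0.16, SE 0.0601, limma adjusted p = 0.0302). This call ended after cyclic loess scaling (adjusted p = 0.0839), without a mean-variance trend (0.269) and without GFP guide replicate 3, Actg1 guide replicate 1 or Actg1 guide replicate 2 (0.157, 0.119 and 0.0679).

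Junb, a Jun protein that is a weaker activator than Jun and can limit it, had 4 regions. The region over its TSS (centre 50 bp before it, chromosome 8, 84978585 to 84978951) had 357, 377 and 378 with the GFP guide and 346, 342 and 336 with the Actg1 guide. The groups did not overlap, but the log2 fold change of -0.13 (SE 0.0716) did not pass (limma adjusted p = 0.160). The regions 1315 and 2498 bp before the TSS gave -0.02 and 0.08 on the log2 scale, which did not pass (limma adjusted p = 0.770 and 0.528), with overlapping groups.

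The fourth Junb region lay 2266 bp from the TSS, beyond the 3′ end of the short gene (chromosome 8, 84976122 to 84976781), and went the other way. It had 507, 504 and 448 with the GFP guide and 586, 544 and 592 with the Actg1 guide, all higher. The means were 477 ± 40.7 (SD, n = 2) and 574 ± 26.2 (SD, n = 3), a 1.20-fold rise (0.27 on the log2 scale, SE 0.0632, limma adjusted p = 0.000608). GFP guide replicate 3 was the lowest library, and without it the log2 fold change was 0.18 (adjusted p = 0.118). Relative to the region over the TSS, the change after the gene was 0.39 higher on the log2 scale (SE 0.0936, limma adjusted p = 0.00152). It was 0.29 without GFP guide replicate 3 (adjusted p = 0.107), and without a mean-variance trend the call also ended (adjusted p = 0.104). The regions before the gene did not pass against the TSS region (0.10 and 0.20, limma adjusted p = 0.363 and 0.194). The pairs of Junb share that TSS region and are not independent.

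Fosl1, also called Fra-1, is a Fos family member known for sustained expression in growing and migrating cells, and its promoter region was the other one that rose. That region, centred 264 bp into the gene (chromosome 19, 5447511 to 5448111), had 251, 256 and 243 with the GFP guide and 317, 288 and 268 with the Actg1 guide. The groups did not overlap, and Actg1 guide replicate 1 was the highest. The means were 248 ± 7.42 (SD, n = 2) and 291 ± 24.6 (SD, n = 3), a 1.17-fold rise (0.23 on the log2 scale, SE 0.0839, limma adjusted p = 0.0278). The call ended without a mean-variance trend (adjusted p = 0.193) and without GFP guide replicate 3, Actg1 guide replicate 1 or Actg1 guide replicate 2 (0.248, 0.160 and 0.0645). The other Fosl1 regions, 1228 bp into the gene and 2443 bp before it, had 203 to 222 and 263 to 273 with the GFP guide and 214 to 226 and 257 to 285 with the Actg1 guide. Both had log2 fold changes of 0.02 (limma adjusted p = 0.873 and 0.856). Relative to the promoter region their changes were each 0.20 lower, which did not pass (limma adjusted p = 0.233 and 0.202).

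The other 3 genes had no called region. Fosb, an immediate early relative of Fos, had a promoter region with 172 to 184 with the GFP guide and 176 to 195 with the Actg1 guide, and a longer one 1789 bp into the gene with 327 to 374 and 357 to 367. Their log2 fold changes were 0.07 (SE 0.0973) and 0.04 (SE 0.0729), and the groups overlapped in both. Jund, the Jun protein that is present in resting cells and is not an immediate early gene, had 813, 844 and 819 against 834, 872 and 802 at its promoter (log2 fold change 0.02, SE 0.0502, limma adjusted p = 0.777). A short region after the Jund gene had 83 to 99 and 94 to 105 (log2 fold change 0.12, SE 0.131).

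Atf3, a stress-induced repressor of the ATF group that pairs with Jun proteins, gave log2 values of -0.16 (SE 0.0866, limma adjusted p = 0.135) 4168 bp before the table's TSS and -0.08 (SE 0.0960, limma adjusted p = 0.546) 1718 bp into the gene. The region before the gene had 240 to 257 with the GFP guide and 217 to 231 with the Actg1 guide. Its groups did not overlap, so it is a further region with uniformly lower values that did not pass. The region in the gene had 199 to 203 and 175 to 204, and its groups overlapped.

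Levels were compared between genes per kb of region, at the region nearest the TSS. This measure depends on the length given to a region, which ran from 367 bp for Junb to 1884 bp for Jun. The median length of regions within 1 kb of a TSS was 802 bp. By signal per region Jun was highest (1153 to 1398), and Junb had 336 to 378. The order of the mean signal per kb over all 6 libraries was Junb (970.0), Jund (826), Fosl2 (805), Jun (652), Fos (503), Fosl1 (450.1), Fosb (336) and Atf3 (238). Jund and Fosl2 did not differ beyond their libraries (797 to 867 and 786 to 817), nor did Fos and Fosl1 (455 to 536 and 404 to 527). Every other neighbouring pair was separated in all libraries. Among the 11784 regions within 1 kb of a TSS, whose median was 288 per kb, Junb stood at percentile 98.5, Jund at 96.7, Fosl2 at 96.4 and Jun at 91.7. Fos and Fosl1 stood at 82.1 and 76.6, Fosb at 59.8 and Atf3 at 39.1, although the Atf3 region lies 1718 bp from the table's TSS. The order of Fos and Fosl1 was not the same with each guide: their means were 530.5 and 413 per kb with the GFP guide and 475 and 484 with the Actg1 guide.

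**Figure D2:**
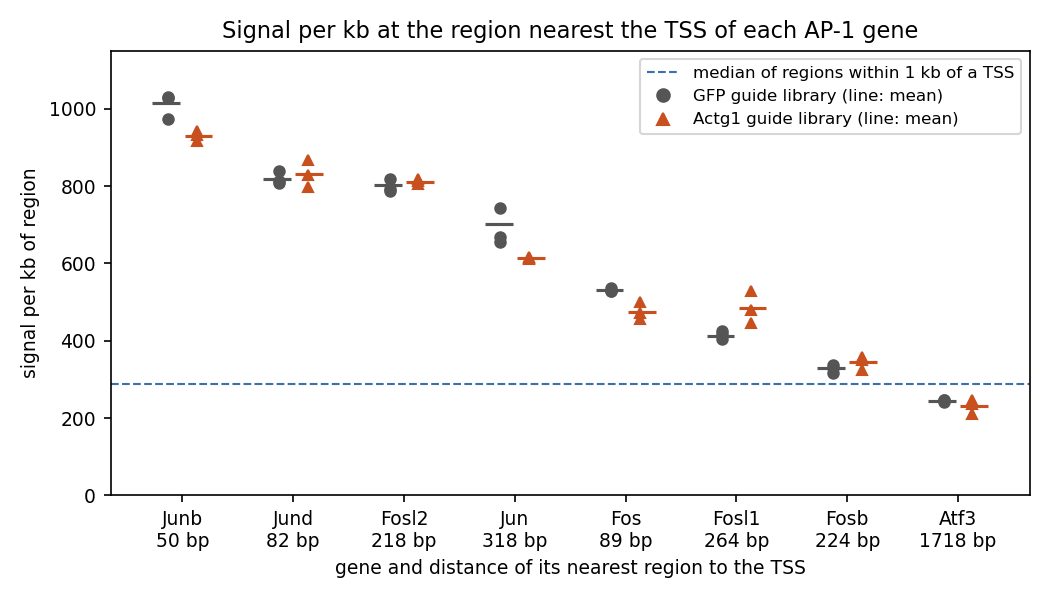
Signal per kb of region (y axis, from 0) at the region nearest the TSS of each AP-1 gene, with 3 GFP guide libraries (circles) and 3 Actg1 guide libraries (triangles), group means as short lines and the median of regions within 1 kb of a TSS as a dashed line. Junb is highest at 970.0 and Atf3 lowest at 238 on average, and the guides differ far less than the genes do.

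The promoter region of Jun was the one with the smallest p among the 7 AP-1 gene regions within 1 kb of a TSS. The promoter regions whose centred log2 signal was nearest to that of Jun over the 6 libraries were those of Vma21 (Euclidean distance 0.0281), Msl2 (0.0387) and Nucb2 (0.0423). The choice by likeness fixes that their fold changes and their highest library, GFP guide replicate 3, resemble those of Jun, so these are given as a description with no test.

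The surroundings of the AP-1 genes were described next. Within 50 kb of the RefSeq bounds of the 8 genes lay 93 other regions, of which 91 were tested. Of these, 25 were higher and 11 lower, or 39.6%, against 41.3% of all tested regions. Their median absolute log2 fold change was 0.27, against 0.31 over all tested regions. These regions are assigned to other genes or to none, and no link to an AP-1 gene was measured. Some lay inside an AP-1 gene as the table bounds it, though too far from its start to be assigned. They were regions 28.0 and 35.4 kb after the table's TSS of Atf3 and a region 10.6 kb after that of Fosl2. Without GFP guide replicate 3 fewer were called in each direction, as over the whole table. Without Actg1 guide replicate 2 the count of higher regions was 16, and without a mean-variance trend it was 11.

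**Figure D3:**
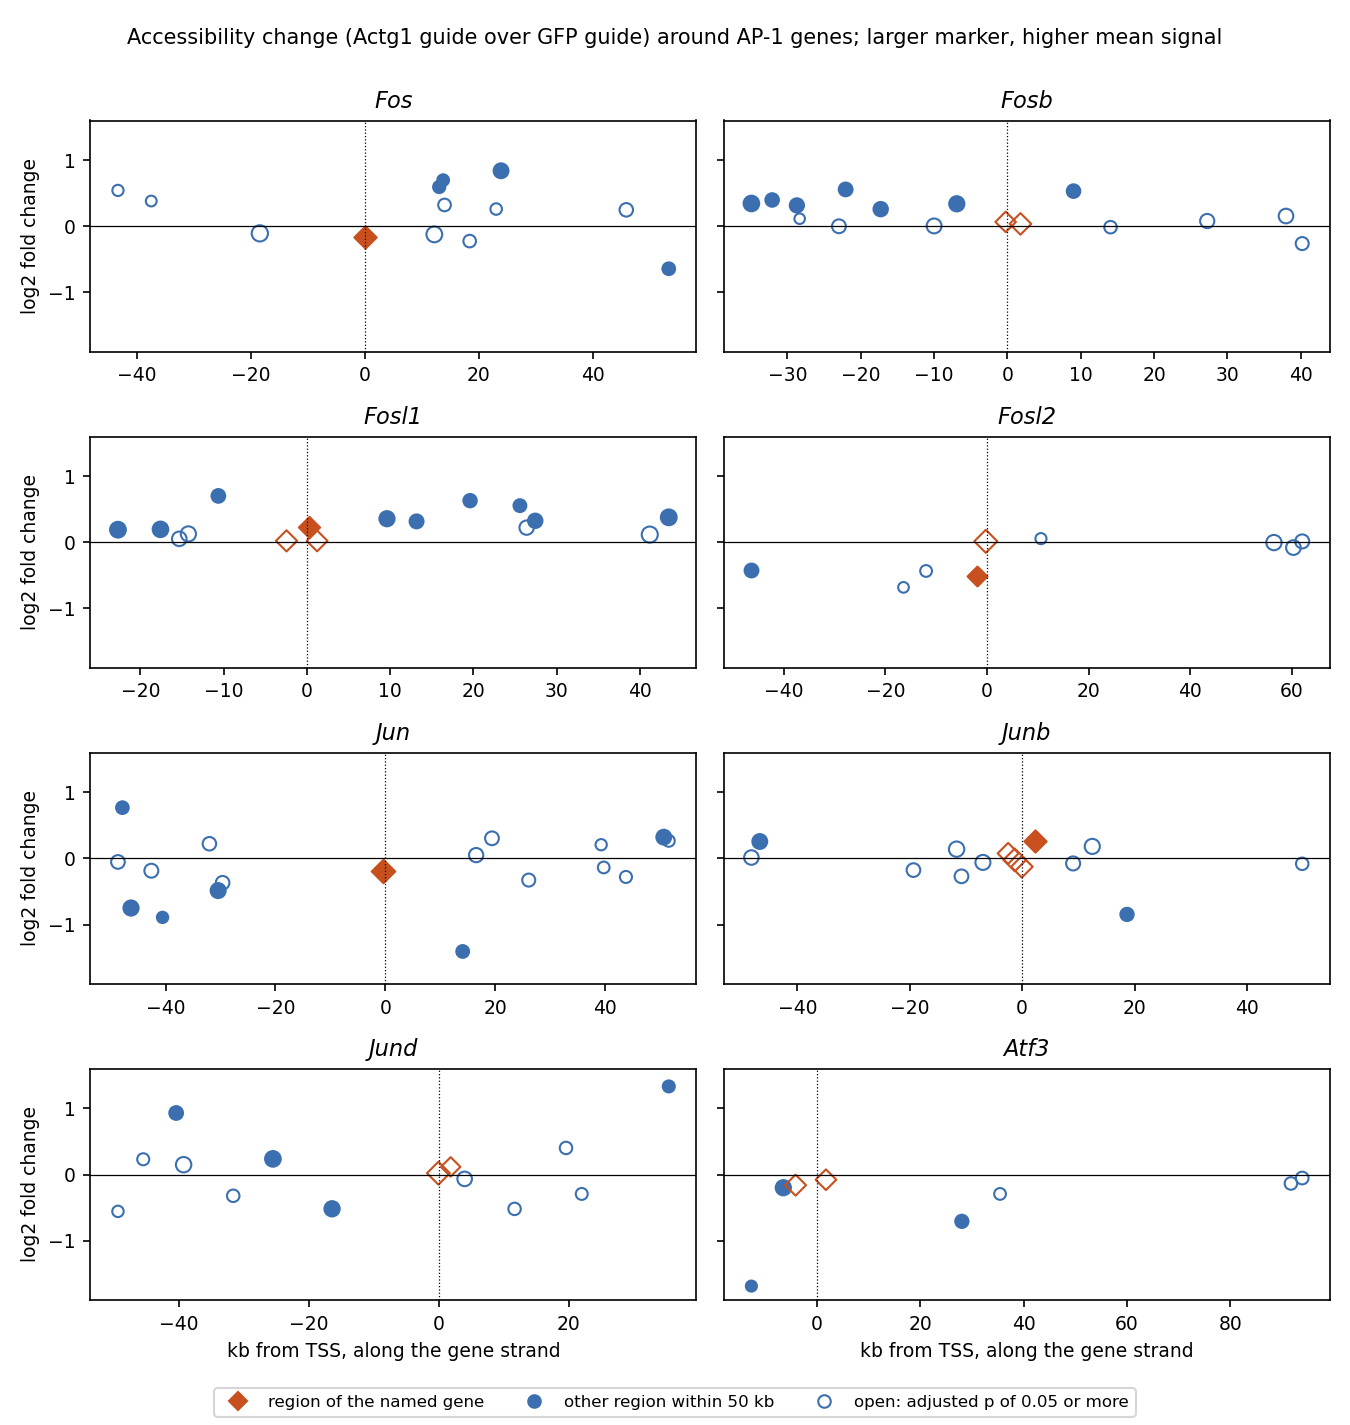
Log2 fold change of each tested region (y axis) against its distance from the TSS in kb along the gene's strand (x axis), with 1 panel per AP-1 gene. Orange diamonds are regions of the named gene, blue circles other regions within 50 kb of it, filled markers passed limma, and larger markers have a higher mean signal. All blue circles around Fosl1 lie above 0 (12 of 13 without Actg1 guide replicate 3) and all around Atf3 below 0 (5 of 6 without some of the libraries).

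Around Fosl1, Fosb and Atf3 every called region had 1 direction, as did the single called region, a lower one, of 7 around Fosl2. Over all tested regions 20.6% were higher and 20.7% lower. Around Fosl1, 9 of 13 regions were higher and 0 lower, and the log2 fold changes ran from 0.05 to 0.70, with 1 of the 13 below 0 without Actg1 guide replicate 3. They included the promoter of Cfl1, the gene of the actin-severing protein cofilin (log2 fold change 0.38), and a region of Ccdc85b, whose groups overlapped (0.36). Around Fosb, 7 of 14 were higher and 0 lower, among them the promoter of the repair gene Ercc1 (0.34). Around Atf3, 3 of 6 were lower and 0 higher. They included a region 28.0 kb after the table's TSS, inside the gene as the table bounds it. That region had 78, 61 and 88 against 42, 49 and 52 (log2 fold change -0.71, limma adjusted p = 0.000797). Neighbouring regions are not independent, and these counts fell to 2 of 13, 3 of 14 and 0 of 6 without GFP guide replicate 3. Without a mean-variance trend they were 4, 3 and 2.

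The largest changes near an AP-1 gene were mostly at weak regions. A region 12.7 kb before the table's TSS of Atf3 (chromosome 1, 191230640 to 191230876) had 12, 22 and 26 with the GFP guide and 9, 3 and 7 with the Actg1 guide (log2 fold change -1.69, SE 0.427, limma adjusted p = 0.00136). A region 14.1 kb after the TSS of Jun (chromosome 4, 95037939 to 95038284), beyond the end of the gene, had 59, 55 and 67 against 19, 16 and 38 (-1.41 on the log2 scale, SE 0.248, limma adjusted p = 1.18e-05). In the fit that omitted GFP guide replicate 3 neither passed, with values of -1.40 and -1.29 (adjusted p = 0.154 and 0.0561). In the other direction, a region 35.4 kb after the TSS of Jund (chromosome 8, 70734179 to 70734421) had 12, 14 and 14 against 39, 41 and 28, a 2.67-fold rise (1.33 on the log2 scale, SE 0.260, limma adjusted p = 5.42e-05).

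The remaining 3 regions named by size were one of Pgpep1, 40.4 kb before Jund (log2 fold change 0.93, limma adjusted p = 6.11e-07), one 40.5 kb before Jun (-0.89, 0.0360) and one 18.7 kb after the TSS of Junb (-0.85, 7.56e-05). The groups overlapped at the region before Jun, whose call also ended without GFP guide replicate 1 (adjusted p = 0.142), GFP guide replicate 3 (0.296), Actg1 guide replicate 1 (0.121) or 3 (0.0738) and without a mean-variance trend (0.0582).

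The following 4 regions near Fos and Jun, with higher signal, were chosen for naming after their values were seen, and 3 of them were called. A region 23.9 kb after the TSS of Fos (chromosome 12, 85497452 to 85498135) had 179, 155 and 168 with the GFP guide and 318, 297 and 287 with the Actg1 guide (log2 fold change 0.84, SE 0.0866), while the Fos promoter was lower. A region 12.2 kb after the TSS had 526, 559 and 590 against 552, 507 and 500, with overlapping groups (log2 fold change -0.12, limma adjusted p = 0.108). The strongest other region near Fos, 18.4 kb before its TSS and not among the 4, had 896, 890 and 857 against 848, 821 and 768. Its groups did not overlap, but it did not pass (log2 fold change -0.11, limma adjusted p = 0.0860). Before Jun, regions 46.3 kb and 30.4 kb from the TSS had 380 to 386 and 304 to 338 with the GFP guide and 208 to 248 and 212 to 234 with the Actg1 guide (log2 fold changes -0.75 and -0.49). The groups were fully separated in both.

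Genes of the wider pathway were taken as 4 lists: other bZIP proteins that pair or share sites with AP-1, the receptors, kinases and factors that act before the AP-1 genes, the phosphatases and inhibitors that limit them, and described AP-1 targets. All regions of a listed gene were counted. The shares called, 32.4%, 29.8%, 25% and 35.5%, lay below the 36.3% of all regions assigned to a gene. Each list had a median log2 fold change between 0.02 and 0.05. Within 1 kb of a TSS the shares were 33.3%, 24.3%, 20.8% and 34.2%, against 32.7% of all such regions. Partners and targets were thus not below it at that distance.

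**Figure D4:**
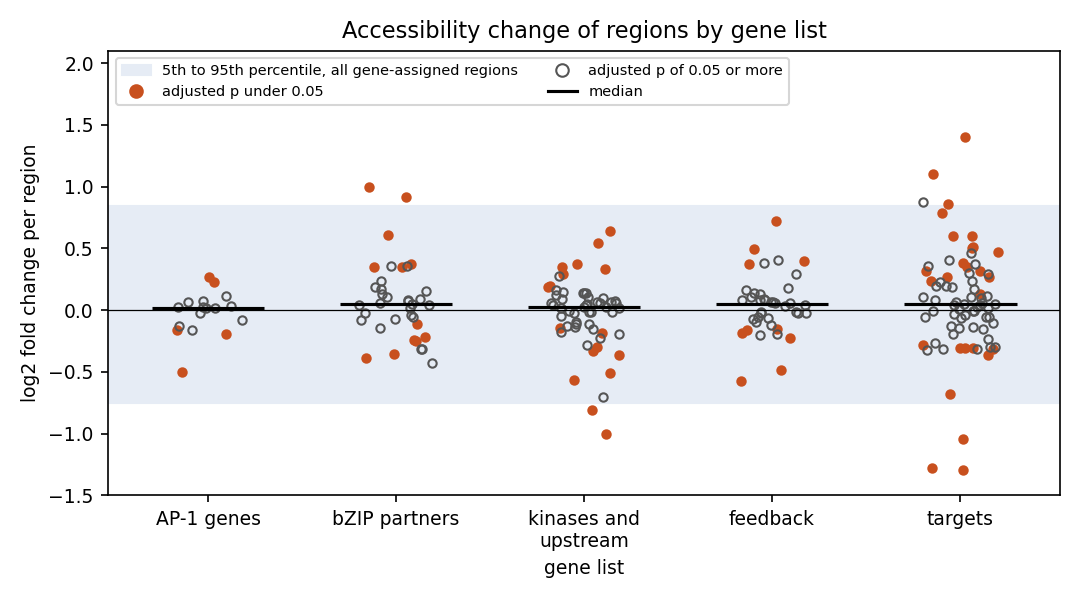
Log2 fold change of each tested region (y axis) for the AP-1 genes and the 4 pathway lists (x axis), with filled orange points where limma passed, black lines at the medians and a band for the 5th to 95th percentile of all gene-assigned regions (-0.76 to 0.84). Medians lie near 0 in each column. The AP-1 genes have the narrowest range, -0.50 to 0.27, but also the fewest regions (17, against 37 to 76), and a range widens with their number.

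Among bZIP partners, 6 of 37 regions were higher and 6 lower. The promoters of Cebpb, a bZIP factor of inflammation and differentiation, and Jdp2, a repressor that dimerises with Jun, were lower. Cebpb had 389, 422 and 416 against 325, 310 and 308 (log2 fold change -0.39, SE 0.0723), and Jdp2 had 412, 358 and 384 against 308, 330 and 266 (-0.36, SE 0.0797). Another Cebpb region 5097 bp from the TSS was higher (87, 98 and 100 against 138, 134 and 171, log2 fold change 0.60). Jdp2 did not pass without GFP guide replicate 3 (adjusted p = 0.0599) or without a mean-variance trend (0.0891). The largest rises were at weak regions before Atf5, a stress-related ATF gene (26, 23 and 20 against 41, 55 and 41, log2 fold change 0.998), and Maff, a small Maf protein (16, 14 and 18 against 30, 35 and 31, 0.92). All 6 lower regions lay within 1 kb of a TSS, and only 2 of the 6 higher ones did. Over the whole table, regions within 1 kb of a TSS also had more lower calls (2175) than higher ones (1631), and assigned regions farther away more higher calls (2154) than lower ones (1729). Without GFP guide replicate 3, 2 regions were lower.

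Among kinases and upstream factors, 8 of 57 regions were higher and 9 lower. The fit that omitted GFP guide replicate 3 had 3 and 2, and 5 were higher when GFP guide replicate 1 or Actg1 guide replicate 2 was omitted. A region of Mapk13, the delta isoform of p38, had 298 to 316 against 471 to 495 (log2 fold change 0.64, SE 0.0682). A region in Pdgfrb, a receptor of platelet-derived growth factor in fibroblasts, had 69 to 81 against 39 to 49 (-0.81, SE 0.172). A weak region of Map3k5, a stress kinase, had 16 to 20 against 6 to 11 (-1.001, SE 0.375), and one before Map2k2, a MEK gene, 28 to 33 against 40 to 46 (0.54, SE 0.206). The Map2k2 call ended without any 1 of GFP guide replicates 1 and 3 and Actg1 guide replicates 2 and 3 (adjusted p = 0.0721, 0.177, 0.0560 and 0.0778) and after cyclic loess scaling (0.0590), and that of Map3k5 without GFP guide replicate 2 or 3 or Actg1 guide replicate 1 (0.0562, 0.204 and 0.0955). Of the regulators of Fos, the Srf promoter was higher (650, 675 and 628 against 754, 711 and 733, log2 fold change 0.18, SE 0.0539, limma adjusted p = 0.0055). That of Elk1 had 397 to 454 and 366 to 422 and did not pass (-0.14, limma adjusted p = 0.112). The Srf call ended without GFP guide replicate 3 (adjusted p = 0.139) and without a mean-variance trend (0.203). The second Srf region (distance 3065 bp) did not pass, at 0.04 on the log2 scale (limma adjusted p = 0.652). Mrtfa, outside the naming rule, had a higher region 1764 bp from its TSS (log2 fold change 0.30, limma adjusted p = 0.0405). Its promoter region did not pass (0.06, limma adjusted p = 0.471).

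Among feedback genes, 4 of 40 tested regions were higher and 6 lower. A region before Ier3, an immediate early gene listed here although it sustains ERK activity, had 78, 79 and 91 against 123, 146 and 154 (log2 fold change 0.73, SE 0.126). A region in Spred2, an inhibitor of the Ras pathway, had 341, 299 and 337 against 479, 479 and 430 (0.49, SE 0.0699). The falls were led by a region after Zfp36l2, which encodes a protein that promotes decay of AU-rich mRNAs (-0.57, SE 0.144), and one in Dusp7, an ERK phosphatase (-0.48, SE 0.139). The Dusp7 value was -0.30 without Actg1 guide replicate 1 and then did not pass (adjusted p = 0.0798), nor did it without GFP guide replicate 3 (0.164) or a mean-variance trend (0.140). The list had 3 lower regions after cyclic loess scaling, 1 when GFP guide replicate 3 was omitted and 2 when Actg1 guide replicate 1 was.

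Among described AP-1 targets, 17 of 76 tested regions were higher and 10 lower. A weak region in Mmp13, a collagenase whose gene is a textbook target of Fos and Jun, had 9, 22 and 14 against 36, 54 and 34 (log2 fold change 1.40, SE 0.249). A region before Vegfa, the vascular growth factor gene, had 38, 37 and 31 against 68, 80 and 76 (1.11, SE 0.173). In the other direction, the promoter of S100a4, a calcium-binding protein of fibroblasts, fell from 180, 187 and 171 to 59, 72 and 86 (-1.30, SE 0.136), and a region before Krt8, a keratin gene, from 98, 107 and 104 to 33, 45 and 50 (-1.28, SE 0.172). Within 1 kb of a TSS, 6 of 38 regions were higher and 7 lower. The whole list had 11 regions higher and 2 lower when GFP guide replicate 3 was left out.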

How the data were processed

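The authors deposited 1 table of 63430 regions with a signal per region and library, which holds read counts normalized between libraries and rounded to whole numbers. That reading rests on the values, since the normalization formula is not given in the sources used here. Per the submitters' processing notes, the build was mm10 and the tools included Trimmomatic 0.39, STAR 2.7.10a, Picard 3.0.0, featureCounts and DESeq2 1.36.0, with no roles stated. Peak calling and handling of the Tn5 offset were not given there. Coordinates and assigned genes are those of the table, whose deposited distances run from region centre to TSS, and lengths count both end bases.

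The signal that 1 read is worth was estimated from the uneven use of small whole numbers (0.807 to 1.35 per library) and served for estimated reads and the chi-square between replicates. Log2(signal + 1) was fitted with limma 3.58.1 in R 4.3.3 with a mean-variance trend, without covariates, on the 61327 regions where 3 or more of the 6 libraries reached a signal of 10. Benjamini-Hochberg adjustment ran over all of these. Fold changes divide Actg1 guide by GFP guide values, and those on the log2(signal + 1) scale understate changes of weak regions. The fit was tested on simulated data. Regions near a gene were named by size of change (the 6 largest called), and of each list the 2 largest called rises and falls, with Srf and Elk1. The members and lists were chosen with earlier results of these data known. The alternatives were 6 fits without 1 library each and 8 others: pseudocounts of 4 and 0.5, no filter, cyclic loess, median-of-ratios rescaling, 6 separate libraries, these with a replicate block, and no trend. Without GFP guide replicate 3, the 1 GFP guide sample left is assumed to vary like the Actg1 guide samples. That fit called fewer regions over the whole table, so calls that end there are not particular to the regions named.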

Additional observations from a re-analysis of the deposited data

How the results depend on the processing

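Over 14 alternatives, the 17 AP-1 gene regions gave 238 values, of which 220 kept direction and side of the threshold, 13 no longer passed and 5 changed sign. The 5 were of regions that had not passed. Junb at 1315 bp had 0.0159 with cyclic loess and -0.0460 to 0.0395 over the fits without 1 library, and over those fits Jund at 82 bp ran from -0.0103 to 0.0499, Fosl1 at 2443 bp from -0.0139 to 0.0604 and at 1228 bp from -0.0101 to 0.0541. The Fosb pair (-0.0677 to 0.0493) and the second Srf region (-0.00636 to 0.0749) changed sign there too. Without a mean-variance trend, the counts higher and lower were 0 and 1 for AP-1 genes, 11 higher for nearby regions, 1 lower for bZIP partners, 4 and 5 for kinases, 1 lower for feedback genes, and 10 and 3 for targets, with 0 unequal pairs. That fit gives weak and strong regions 1 common prior variance, and it called 17341 of 61327 regions. Cyclic loess left 3 lower feedback regions. Leaving out 1 library gave 0 to 2 higher and 1 to 3 lower AP-1 gene regions, 10 to 23 and 4 to 12 nearby, 5 to 7 and 2 to 8 among partners, 3 to 10 and 2 to 10 among kinases, 3 to 5 and 1 to 6 among feedback genes, 11 to 19 and 2 to 12 among targets, and 1 to 2 unequal pairs. Same-numbered replicates deviated together with correlations of 0.0252, 0.0138 and 0.0161, and each library correlated most with its own number. These values were below the minimum of 0.1 used here for pairing, so the main fit did not pair the samples. With the replicate block and 6 separate libraries, AP-1 genes again had 2 higher and 3 lower regions and targets had 16 lower. That fit called 28725 of all regions, against 28176 for 6 separate libraries without the block. The cause of these differences between settings was not tested, and regions with few estimated reads carry the most counting error.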
